A study of Homo sapiens with 40 samples.

Results

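The genes described here are 34 genes of homologous recombination and of the Fanconi anaemia pathway, with the checkpoint kinases that act with them and 2 S-phase genes that have been linked to DNA repair, DDIAS and FAM111B. A gene counted as measured when the platform annotation paired a probe set with that gene alone, and its brightest such probe set stood for it. This held for 30 of the 34, and all 30 passed the filter on dim probe sets, among 11853 genes tested in all. BRCA2, FANCA, FANCD2 and RBBP8 had no such probe set and are not analysed here. The genes were described on 40 arrays of LNCaP, an androgen-responsive human prostate cancer line. There were 3 control lines that the labels call sensitive to MDV3100 (enzalutamide, an androgen receptor antagonist) and 7 resistant clones, numbered 1, 9, 10, 14, 15, 19 and 24. Control 1, control 2 and control 3 stand for the lines with the titles D+E-, D+R- and M+R-, which the labels do not explain. All lines grew in medium with serum, were seeded 3 days before treatment and then received 10 µM MDV3100 or its solvent, 0.1% DMSO, for 24 h. Each line and treatment has a replicate 1 and a replicate 2 array, so the groups hold 6 control DMSO, 6 control MDV3100, 14 clone DMSO and 14 clone MDV3100 arrays. All lines derive from 1 cell line, each resistant line is a single clone, and how resistance was obtained is not given in the sources used here.

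Homologous recombination repairs broken chromosomes by copying the sister chromatid. Nucleases cut back the broken ends, BRCA1, BARD1 and PALB2 prepare them for strand exchange, and further proteins find and invade the intact copy. The Fanconi pathway unhooks crosslinks between the DNA strands: a core complex attaches ubiquitin to FANCD2 and FANCI, and recombination then completes the repair. Because a sister chromatid exists only after replication, many of these genes are transcribed mainly in S and G2 phase, and their RNA falls when cells leave the cycle. Androgen drives proliferation of LNCaP cells, so a fall of repair genes under an antiandrogen may go with a fall of proliferation genes in general. The comparison therefore sets each repair gene against 63 proliferation genes of the same line, 31 of DNA replication and 32 of mitosis. In bulk RNA, fewer cycling cells and less RNA per cell cannot be told apart.

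The values are MAS5 signals, and every difference is on the log2(signal + 16) scale. A response is MDV3100 minus DMSO in the same line and replicate. The line is the unit of every test unless another unit is named. A pair in square brackets gives the replicate 1 and the replicate 2 arrays alone. A gene is called when its adjusted p is under 0.05 in the limma fit over all genes. The replicate sets differed: with each gene's mean subtracted, the 2 replicates of a label had a median r of -0.408 across genes, and the 2 treatments of a culture one of 0.781. On the same scale, the replicate 2 culture labelled control 2 matched the replicate 1 culture labelled clone 1 at r = 0.748 and its own label at -0.328. The one labelled clone 1 matched clone 19 best (r = 0.744), and control 3 matched clone 15 (r = 0.633). None of the other replicate 2 cultures matched its own label best either. Control 1 matched control 3 at r = 0.51 and its own label at 0.0956. The remaining clones had r between -0.724 and -0.428 with their own labels, and at most 0.0657 with any replicate 1 culture. Line identity across the sets is thus uncertain for all labels. For these remaining clones the measure cannot decide it, since any shift between the sets stays in the profiles. Groups below are those of the labels. Calls that change without the 3 replicate 2 cultures of control 2, control 3 and clone 1 are given beside the gene. The luminal markers KLK3, HOXB13, FOLH1, KRT8 and KRT18 were all above the filter. Of 12 measured markers of fibroblasts, endothelium, blood and basal cells, COL1A1 and VWF were above it. Of 17 androgen-induced genes, 11 were called lower under MDV3100 in the control lines, where 5.06% of all genes were.

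In the control lines 14 of the 30 repair genes were called lower under MDV3100, where 5.06% of all genes were. In a fit on single arrays with the line as a block, 0 were called by limma, where 0% of all genes were. The 14 were FAM111B, DDIAS, XRCC3, EXO1, RAD54B, BLM, BRCA1, FANCG, CHEK2, MRE11, CHEK1, FANCI, FANCM and RAD51C. None was called higher, and 28 of the 30 had a mean response below 0. The median response over the members was -0.29 ± 0.18 (SD, n = 3 lines), against 0.0048 ± 0.014 for all genes. In each culture the members' median was -0.47, -0.29 and -0.41 in replicate 1 of control 1, 2 and 3, and -0.40, -0.052 and -0.16 in replicate 2. The median thus lay below 0 in all 6 control cultures, and control 2 in replicate 2 stood nearest to no change. Of the 14 calls, 3 were made without control 1, those of FAM111B, DDIAS and XRCC3, where 0.936% of all genes were called lower. Without the 3 replicate 2 cultures named above 14 were called, with BRIP1 in place of FANCM, where 5.59% of all genes were. Within replicate 1 alone 11 members were called lower, where 4.1% of all genes were. Within replicate 2 alone 0 members were called by limma, where 0.0422% of all genes were. At an unadjusted p under 0.05, 9 members were lower there, against 660 of 11853 genes. In both sets 23 members had a mean response below 0. The ratio of 3' to 5' signal of beta-actin, a measure of RNA integrity and amplification, lay between 3.18 and 4.12 in DMSO and between 4.26 and 6.59 in MDV3100 on the control arrays of replicate 1. It was highest, 6.59, in control 2, and without that culture 6 members were called, BRCA1, CHEK1, DDIAS, FAM111B, MRE11 and XRCC3, where 2.16% of all genes were. In replicate 2 the ratio lay between 3.3 and 3.7 in DMSO and between 3.36 and 3.95 in MDV3100. The members' median there was -0.40, -0.052 and -0.16 in control 1, 2 and 3. On the clone arrays of replicate 1 the ratio lay between 3.39 and 4.77 in DMSO and between 3.68 and 5.34 in MDV3100. In replicate 2 it lay between 2.69 and 3.48 in DMSO and between 2.59 and 3.71 in MDV3100. Whether the ratio bears on the responses was not tested.

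**Figure D1:**
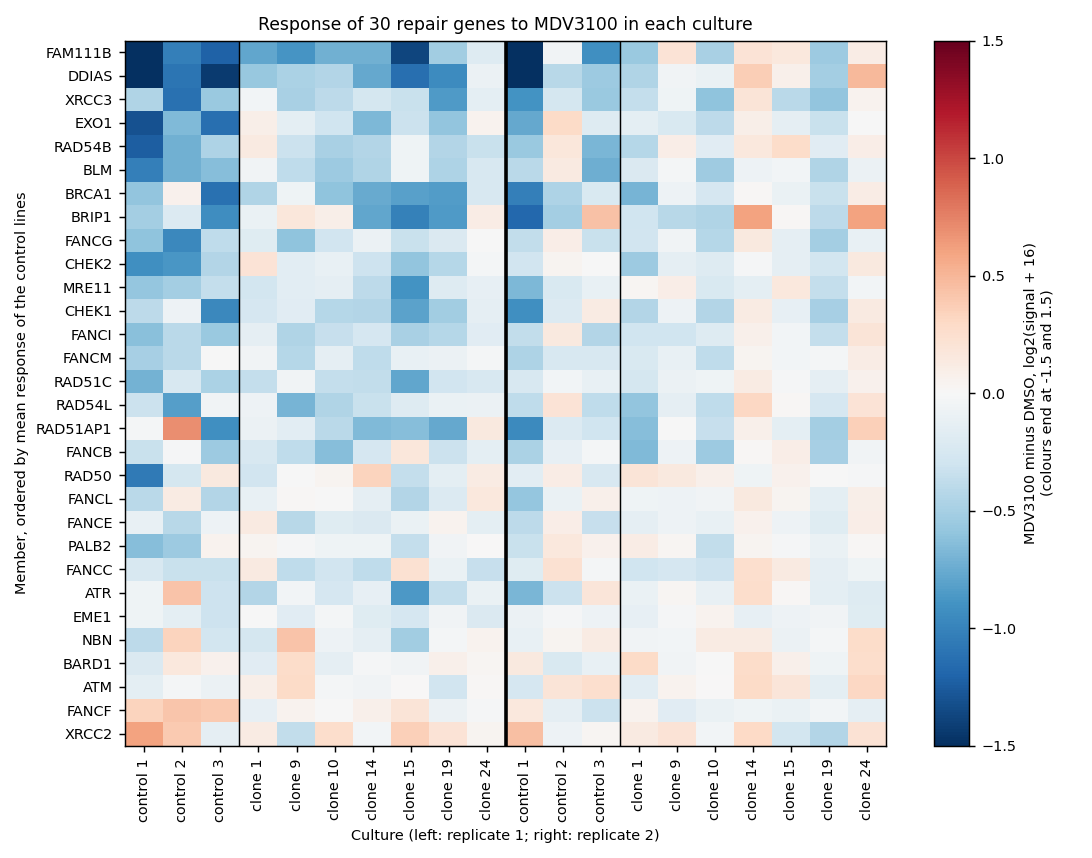
Response of each of the 30 measured members (rows, MDV3100 minus DMSO on the log2(signal + 16) scale, blue lower and red higher) in the 20 cultures (columns, replicate 1 on the left and replicate 2 on the right of the thick line, control lines before clones). The darkest blue lies at FAM111B and DDIAS in the control lines, FANCF and XRCC2 at the bottom have a mean above 0 there, and clone 14 and clone 24 in replicate 2 show mostly red.

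The largest falls were those of FAM111B and DDIAS, both of which were already seen to fall in earlier results of these data. FAM111B is a protease-like protein expressed in S phase. Its signal went from 507 to 98.7, from 560.8 to 266.9 and from 521.7 to 216.6 in control 1, 2 and 3 of replicate 1. In replicate 2 it went from 456.1 to 137.9, from 577.6 to 554 and from 878.3 to 456.4. MDV3100 was lower in all 6 pairs, and in replicate 1 the groups did not overlap. The mean response was -1.17 ± 0.19 (SE) [-1.48, -0.87], with an adjusted p = 0.002. A second FAM111B probe set gave -1.20. DDIAS, a DNA damage-induced suppressor of apoptosis, went from 231.1 to 60.9, from 276.2 to 121 and from 212 to 68.6 in replicate 1. In replicate 2 it went from 272.3 to 65.4, from 163.6 to 118.1 and from 152.2 to 99.1. Every MDV3100 signal of DDIAS lay below every DMSO signal of the same replicate set. Its mean response was -1.17 ± 0.17 (SE) [-1.40, -0.93], with an adjusted p = 0.00147. Over 22 alternative settings, each of these 2 genes was called in 20, the exceptions being replicate 2 alone and a fit on single arrays with the line as a block. The settings that left out 1 clone do not alter the control line responses and change only the shared spread, so they test these calls little.

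Among the genes of strand invasion and of the joint molecules that follow, 3 of 7 were called lower in the control lines, where 5.06% of all genes were. XRCC3, a strand exchange cofactor, went from 200, 278.7 and 211.3 to 142.5, 119.6 and 138 in control 1, 2 and 3 of replicate 1. The replicate 2 values went from 179.7, 172.6 and 254.2 to 89, 141.2 and 168.1. It was lower in all 6 pairs and the groups did not overlap in either set, with a mean response of -0.64 [-0.71, -0.57] (adjusted p = 0.00369), and its 2 replicate values were closer than those of FAM111B or DDIAS. RAD54B, a DNA translocase, went from 422.6, 428.8 and 411.3 to 169.8, 254.6 and 295.1 in replicate 1, with no overlap. The second set went from 517.7, 481.8 and 599.8 to 348.1, 542.8 and 365.6, and control 2 rose there while the others fell. The mean response of RAD54B was -0.58 [-0.80, -0.36] (adjusted p = 0.00447). RAD51C, the partner of XRCC3, responded by -0.30 [-0.48, -0.13] (adjusted p = 0.0321). RAD54L and RAD51AP1 gave -0.29 [-0.40, -0.18] and -0.28 [-0.08, -0.49], neither called. EME1, partner of the MUS81 nuclease, gave -0.12 [-0.17, -0.06] at its brightest probe set and -0.55 at another, and was called lower when all its probe sets were averaged. XRCC2 gave 0.21 [0.28, 0.13] (adjusted p = 0.181).

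Of the genes that open and process DNA ends, 3 of 5 were called lower, where 5.06% of all genes were. EXO1, the exonuclease of long-range resection, went from 241.4, 248.1 and 255.1 to 87.7, 150.8 and 107.8 in replicate 1. Those of replicate 2 went from 280.9, 226.3 and 242.7 to 158.3, 280.3 and 209.8. The groups were well apart in replicate 1 and overlapped in replicate 2, where control 2 rose. The mean response was -0.63 [-1.04, -0.22] (adjusted p = 0.00851). BLM, the helicase that also dissolves joint molecules, went from 202.1, 219.1 and 190.2 to 91.2, 126.1 and 116.8, and in replicate 2 from 208.3, 185.8 and 223.6 to 153.4, 205 and 128. It fell in 5 of 6 pairs, by a mean of -0.57 [-0.80, -0.34] (adjusted p = 0.00452). MRE11, the nuclease that starts resection, responded by -0.41 [-0.49, -0.34] (adjusted p = 0.00867) and was lower in all 6 pairs. Its partners RAD50 and NBN were not called, at -0.24 [-0.39, -0.09] and -0.05 [-0.11, 0.02]. The NBN value depended on the probe set: others above the filter gave -0.26, -0.33 and -0.16. NBN was not called with all its probe sets averaged either.

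BRCA1 was the 1 gene called lower of the 4 in the BRCA1 group, where 5.06% of all genes were. Its signal went from 241.5, 251.5 and 282.5 to 155.5, 264.1 and 121.4 in replicate 1, and from 271.4, 311.4 and 255.4 to 125.1, 221.4 and 215.6 in replicate 2. It fell in 5 of 6 pairs, with control 2 of replicate 1 as the exception, by a mean of -0.56 [-0.55, -0.57] (adjusted p = 0.0125). BRIP1, the helicase bound to BRCA1, responded by -0.48 [-0.55, -0.41] (adjusted p = 0.0606). It was called at -0.66 without the 3 replicate 2 cultures named above (adjusted p = 0.0271). PALB2, which links BRCA1 to BRCA2, responded by -0.21 [-0.38, -0.04] (adjusted p = 0.175). BARD1, the partner that makes BRCA1 a ubiquitin ligase, stayed at -0.03 [0.00, -0.06]. The difference between BRCA1 and BARD1 was not tested.

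In the Fanconi pathway 2 of 7 core complex genes were called lower, where 5.06% of all genes were. FANCG went from 314.2, 300.7 and 307 to 201.8, 145.9 and 231.5 in replicate 1, with no overlap, and from 371.2, 327.6 and 375.3 to 284.8, 353.1 and 295.2 in replicate 2, where the groups overlapped. Its mean response was -0.42 [-0.65, -0.20] (adjusted p = 0.00662). FANCM, which anchors the core complex on DNA, gave -0.31 [-0.30, -0.31] (adjusted p = 0.0298), alike in both sets, and was not called without the 3 replicate 2 cultures, at -0.30 (adjusted p = 0.0854). FANCI, the partner of FANCD2 and a substrate of the core complex, gave -0.37 [-0.53, -0.22] (adjusted p = 0.0226). FANCB, FANCL, FANCE and FANCC gave between -0.25 and -0.15 and were not called. FANCF was called higher in replicate 1 alone, by 0.38 (adjusted p = 0.0311), where 3.75% of all genes were called higher. In replicate 2 it gave -0.10, and its second probe set gave -0.13 and 0.05 in the 2 sets.

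The effector kinases CHEK1 and CHEK2 were called lower, where 5.06% of all genes were, and the apical kinases ATM and ATR were not called. The difference between effector and apical kinases was not tested. CHEK1 went from 328.1, 312.1 and 297.1 to 247.1, 295.9 and 144.8 in replicate 1, and from 326.2, 294.3 and 212.6 to 165.3, 252.7 and 233.4 in replicate 2. It fell in 5 of 6 pairs, with control 3 of replicate 2 as the exception. The size of its response ranged widely between lines, with a mean of -0.40 [-0.47, -0.33] (adjusted p = 0.0339). Of the 4 CHEK1 probe sets, 3 gave -0.40 to -0.60 and the fourth gave 0.22. CHEK2 responded by -0.41 [-0.75, -0.08] (adjusted p = 0.011), almost all of it in replicate 1. ATM, which responds to double-strand breaks, went from 327.2, 349.4 and 385.2 to 295.3, 341.6 and 362 in replicate 1, and from 327.7, 223.3 and 259 to 273.5, 258.5 and 312.6 in replicate 2. The groups overlapped in both sets, and the mean response was -0.01 [-0.09, 0.07] (adjusted p = 0.965). ATR, the kinase of replication stress, went from 518.8, 480.1 and 484.7 to 495, 650.8 and 389.3, and in replicate 2 from 446.5, 461 and 377.1 to 272.7, 366.6 and 430.2. It rose in control 2 of replicate 1 and in control 3 of replicate 2 and fell in the other 4 pairs, with a mean of -0.13 [0.02, -0.27] (adjusted p = 0.451).

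**Figure D2:**
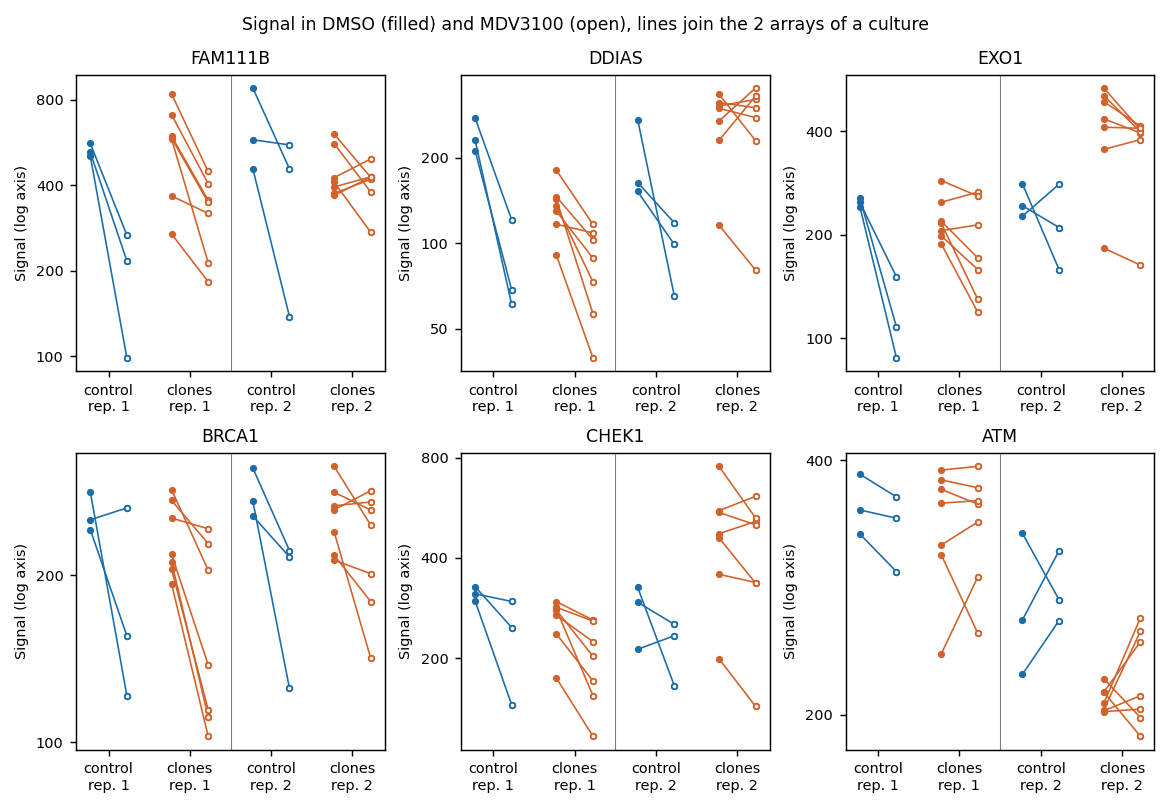
MAS5 signal (log axis) of FAM111B, DDIAS, EXO1, BRCA1, CHEK1 and ATM in DMSO (filled points) and MDV3100 (open points), with a line joining the 2 arrays of a culture, control lines in blue and clones in orange, replicate 1 left and replicate 2 right of the grey line. DDIAS falls in all 6 control cultures, while ATM has no common direction, and in DMSO the clones of replicate 2 lie above those of replicate 1 for DDIAS, EXO1 and CHEK1, except clone 1, and below them for ATM.

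The fall of the members as a list did not go beyond that of the proliferation genes. In the control lines the proliferation genes had a median response of -0.42 ± 0.18 (SD, n = 3 lines), more negative than the -0.29 of the repair genes. The members' median lay above the proliferation median in all 3 control lines, by 0.13 ± 0.035 (SD, n = 3 lines) [0.14, 0.040]. Against the 31 replication genes alone the gap was 0.17, and against the 32 mitosis genes alone it was 0.077 ± 0.070. Of the replication genes 23 of 31 were called lower in the control lines, and of the mitosis genes 24 of 32, against 14 of 30 repair genes. By culture, the count of members below the proliferation median of the same culture was 8, 11 and 11 of 30 in replicate 1 of control 1, 2 and 3, and 12, 16 and 15 in replicate 2. As single proliferation genes, MCM5, a subunit of the replicative helicase, responded by -0.70 and CDC6, which loads it, by -0.71, both called lower. MKI67, the Ki-67 antigen, was called lower at -0.48, and TOP2A, a topoisomerase of G2 and mitosis, gave -0.21 (adjusted p = 0.0764).

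**Figure D3:**
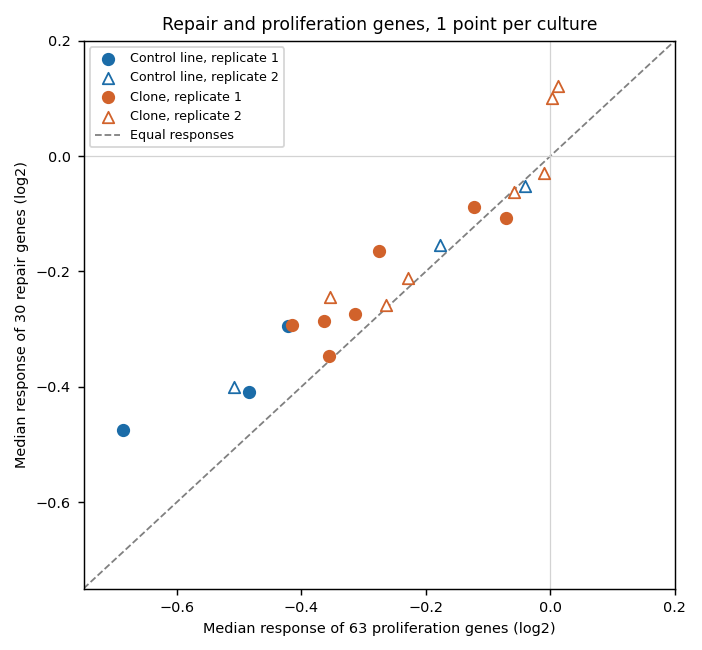
Median response of the 30 repair genes (vertical) against that of the 63 proliferation genes (horizontal) in each of 20 cultures, both on the log2(signal + 16) scale, with control lines in blue, clones in orange, replicate 1 filled and replicate 2 open. Most points lie a little above the dashed line of equal responses, and control 1 of replicate 1 lies lowest, at -0.69 for proliferation and -0.47 for repair genes.

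DDIAS and FAM111B were the 2 members that fell beyond the proliferation genes in the control lines, where 0.633% of all genes did. They are the S-phase genes of the list, and no recombination, Fanconi or checkpoint kinase gene passed in this fit. Both were already seen to fall in earlier results of these data, so their passing is no independent support. After subtraction of the proliferation median of each line, DDIAS was at -0.74 ± 0.13 (SE) [-0.87, -0.69], with an adjusted p = 0.000275. FAM111B was at -0.75 ± 0.14 (SE) [-0.94, -0.62], with an adjusted p = 0.0004. In replicate 1 alone 3 members passed, with EXO1 at -0.50 added (adjusted p = 0.00502), where 0.557% of all genes did. In replicate 2 alone 0 passed in limma, where 0.0759% of all genes did. At an unadjusted p under 0.05, 4 members were lower there, BRCA1, XRCC3, DDIAS and FAM111B, against 99 of 11853 genes. With the 20 cultures as units in place of the lines, 4 members passed, where 0.751% of all genes did. EXO1 at -0.24 (adjusted p = 0.0383) and XRCC3 at -0.25 (adjusted p = 0.0332) were added to DDIAS and FAM111B. That fit counts the 2 cultures of a line as independent, so its p-values do not allow for the shared line. Without the 3 replicate 2 cultures EXO1 passed as well, at -0.43 (adjusted p = 0.0027), where 0.692% of all genes did. Over 24 alternative settings FAM111B passed in 23 and DDIAS in 22, where settings that left out 1 clone again left the control line responses as they were. At the other end, 10 members were called higher than the proliferation genes. Among them were ATM at 0.41, BARD1 at 0.39, NBN at 0.38, FANCF at 0.56 and XRCC2 at 0.63. For NBN this rests on its brightest probe set, and other NBN probe sets fell more. Since a gene that does not move comes out higher here, 85.3% of all genes were called so, and the 10 of 30 is the lower share. With so many calls the adjustment was weak: of 79 genes lower at an unadjusted p under 0.05, 75 were called. Lower calls with an adjusted p near 0.05, as for EXO1 and XRCC3, are thus little stricter than unadjusted ones. The other 18 members, among them BRCA1 at -0.14, BLM at -0.14 and CHEK2 at 0.01, were called neither way.

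**Figure D4:**
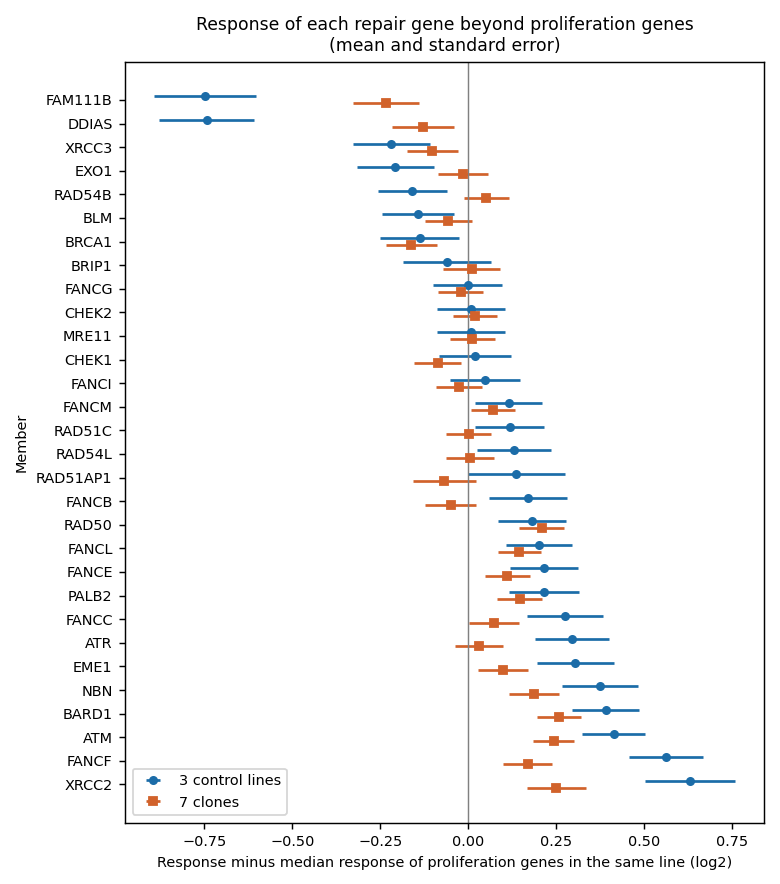
Mean response of each member minus the median response of the proliferation genes in the same line (log2, bars are standard errors of the fit), for 3 control lines in blue and 7 clones in orange. DDIAS and FAM111B lie farthest to the left in the control lines, at -0.74 and -0.75, and XRCC2 farthest to the right, at 0.63.

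The sequence before the start site is shown for the called members with the largest falls that RefSeq's promoter table holds, to set the letters of cell cycle promoters beside the falls. Replication genes often carry E2F sites, bound by the factors that act at the entry to S phase, and mitotic genes often carry the CHR element. Letters searched on both strands, in windows of 250 bases before and 50 after each start in GRCh38.p14, were TTTCCCGC, TTTCGCGC, TTTGCCGC and TTTGGCGC for E2F and TTTGAA for the CHR. CCAAT, the site of NF-Y that cell cycle promoters often carry, was added after the stretches had been seen. Matches of different motifs shared bases in 0 of the 34 windows of the members. The stretches of 150 bases that end at the start site follow, with CCAAT, or ATTGG on the other strand, in capitals. They hold no E2F or CHR letters, and EXO1 holds no CCAAT in the stretch shown or in that of its second start site.
DDIAS, chr11:82901586-82901735, + strand: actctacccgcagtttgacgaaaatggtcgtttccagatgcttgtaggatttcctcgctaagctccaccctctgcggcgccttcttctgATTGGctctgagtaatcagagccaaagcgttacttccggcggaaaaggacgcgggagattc
XRCC3, chr14:103715452-103715601, - strand: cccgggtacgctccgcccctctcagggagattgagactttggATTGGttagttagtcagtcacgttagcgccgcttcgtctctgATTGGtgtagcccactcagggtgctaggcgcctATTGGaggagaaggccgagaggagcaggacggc
EXO1, chr1:241848054-241848203, + strand: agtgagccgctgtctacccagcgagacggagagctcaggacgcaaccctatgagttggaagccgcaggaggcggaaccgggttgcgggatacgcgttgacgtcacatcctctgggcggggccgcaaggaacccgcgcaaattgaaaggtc
BLM, chr15:90717196-90717345, + strand: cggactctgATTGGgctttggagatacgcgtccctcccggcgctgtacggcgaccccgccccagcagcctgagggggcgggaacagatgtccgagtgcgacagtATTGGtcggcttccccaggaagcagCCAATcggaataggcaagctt

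An E2F match was found in 3 members, EXO1, XRCC2 and FANCC, and stretches of 30 bases around it are shown beside that of the replication gene CDC6, with the matched letters in capitals. Of these members EXO1 was called lower in the control lines, and XRCC2 and FANCC were not.
EXO1, chr1:241848197-241848226, + strand: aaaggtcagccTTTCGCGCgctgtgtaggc
XRCC2, chr7:152676102-152676131, - strand: tggcgttggtgGCGGGAAAgttgagtctct
FANCC, chr9:95317863-95317892, - strand: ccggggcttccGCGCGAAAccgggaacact
CDC6, chr17:40287875-40287904, + strand: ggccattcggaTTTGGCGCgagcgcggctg

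The table held 26 of the 30 members; RAD54B, FANCI, NBN and FAM111B were not among them. The E2F letters were in 3 of these 26 (11.5%), in 17 of 28 replication genes (60.7%), in 2 of 27 mitosis genes (7.4%) and in 6.6% of 9750 measured genes. The CHR letters were in 3 members (11.5%), ATM, BRIP1 and FANCC, in 19 of 27 mitosis genes (70.4%), in 1 of 28 replication genes (3.6%) and in 13.5% of measured genes. CCAAT was in 14 members (53.8%), in 64.3% of replication genes, in 77.8% of mitosis genes and in 43.7% of measured genes. Over all 35116 windows of the table the shares were 3.3% for E2F, 15.2% for the CHR and 34.6% for CCAAT. The members' E2F share was thus below that of the replication genes and their CHR share below that of the mitosis genes, with no test of either. Of the 11 members called lower in the control lines that the table holds, 1 had E2F letters, 0 had CHR letters and 8 had CCAAT. Of the 15 members not called lower, 2, 3 and 6 had them. Genes with several start sites have several windows and so more chances of a match. A match is a description of letters, not a measured site.

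In the resistant clones 0 of the 30 members were called lower by limma, where 0.464% of all genes were. At an unadjusted p under 0.05, 20 members were lower, against 1052 of 11853 genes, and 26 members had a mean response below 0. The members' median was -0.15 ± 0.094 (SD, n = 7 clones), against -0.0033 ± 0.013 for all genes and -0.20 ± 0.084 for the proliferation genes. BRCA1 came nearest to a call, at -0.36 [-0.54, -0.19] (adjusted p = 0.0525). Its signal in the clones of replicate 1 had a lowest, median and highest value of 192.8, 218 and 284.8 in DMSO and 102.6, 137.9 and 242.3 in MDV3100. In replicate 2 these were 212.8, 262.2 and 313.8 in DMSO and 141.6, 245.9 and 283.6 in MDV3100, so the groups overlapped in both sets. XRCC3 gave -0.31 [-0.36, -0.25] (adjusted p = 0.0698), CHEK1 -0.29 [-0.39, -0.19] (adjusted p = 0.0771) and BLM -0.26 [-0.31, -0.20] (adjusted p = 0.0847). BLM was the 1 member below 0 in all 14 clone cultures. Without clone 24, 5 members were called lower, BRCA1, CHEK1, FANCG, FANCI and XRCC3, where 1.05% of all genes were.

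The clones differed by replicate set and by line. The members' median lay between -0.35 (clone 15) and -0.088 (clone 24) in replicate 1 and between -0.26 (clone 19) and 0.12 (clone 14) in replicate 2. In clone 19 of replicate 2 all 30 members were below 0, in clone 14 of replicate 2 only 6 and in clone 24 of replicate 2 only 10. In replicate 1 alone 3 members were called lower, DDIAS at -0.63 (adjusted p = 0.013), FAM111B at -0.74 (adjusted p = 0.0176) and FANCI at -0.32 (adjusted p = 0.0355), where 0.852% of all genes were. In replicate 2 alone 0 were called in limma, where 0% of all genes were. At an unadjusted p under 0.05, 3 members were lower there, against 586 of 11853 genes.

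FAM111B showed this split most plainly. In the clones of replicate 1 its lowest, median and highest signal was 269.1, 585.2 and 836.7 in DMSO and 183.1, 348 and 446.9 in MDV3100, and all 7 clones fell. In replicate 2 it was 368.4, 409.2 and 604.8 in DMSO and 273, 426 and 494.6 in MDV3100, and responses ran from -0.56 to 0.21. DDIAS in replicate 1 was 90.9, 135.8 and 180.9 in DMSO and 39.5, 88.7 and 116.5 in MDV3100, lower in all 7 clones. In replicate 2 it was 115.9, 298.5 and 334.9 in DMSO and 80.5, 300.1 and 352.1 in MDV3100, and responses ran from -0.51 to 0.49. For EXO1 the response of the clones had a median of -0.30 in replicate 1 and -0.15 in replicate 2, with 11 of 14 cultures below 0. ATM had 5 of 14 clone cultures below 0.

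Beyond the proliferation genes, FAM111B alone passed in the clones, at -0.23 [-0.47, -0.00069] (adjusted p = 0.0412), where 0.211% of all genes did. The adjustment was weak here too: of 37 genes lower at an unadjusted p under 0.05, 25 were called. In replicate 1 alone FAM111B at -0.47 and DDIAS at -0.36 passed (adjusted p = 0.00704 and 0.00923), where 0.354% of all genes did, and in replicate 2 alone 0 passed in limma, where 0% of all genes did and 0 members were lower at an unadjusted p under 0.05. Of 24 alternative settings the FAM111B value passed in 15, and it was lost without any 1 of clones 1, 9, 10, 15 and 19 (adjusted p from 0.0545 to 0.105) and without control 2 of replicate 1 (adjusted p = 0.0799). As a list, the members lay above the proliferation median by 0.051 ± 0.051 (SD, n = 7 clones) [0.051, 0.046]. With the replicates averaged, clone 15 was the 1 clone below it. In replicate 1 alone that was clone 1, and in replicate 2 alone clones 9 and 15. In the clones 7 members were called higher than the proliferation genes, BARD1, ATM, XRCC2, RAD50, NBN, FANCF and FANCL, where 62.3% of all genes were.

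Whether the response itself differed was tested as clones minus control lines, and 0 members were called in limma, where 0.304% of all genes were called with a higher value in the clones. At an unadjusted p under 0.05 it was above 0 for 8 members and below 0 for FANCF. Over all 11853 genes it was above 0 for 729 and below 0 for 1018 at that cut. The largest differences were those of DDIAS, 0.84 [0.77, 0.90] (adjusted p = 0.0864), FAM111B, 0.73 [0.73, 0.74] (adjusted p = 0.139), RAD54B, 0.43 [0.52, 0.34] (adjusted p = 0.127), and EXO1, 0.41 [0.77, 0.06] (adjusted p = 0.224). The median difference over the members was 0.15, against 0.20 over the proliferation genes and -0.0024 over all genes. Without the 3 replicate 2 cultures named above, 3 members were called, where 0.785% of all genes were called higher. They were DDIAS at 1.09 (adjusted p = 0.0174), EXO1 at 0.74 (adjusted p = 0.0272) and FAM111B at 0.93 (adjusted p = 0.0367).

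Before the drug, the DMSO level of 0 members differed between clones and control lines in limma, where 0.0759% of all genes were called higher and 0.0422% lower in the clones. At an unadjusted p under 0.05, 4 of 30 members were higher and 3 lower. Over all genes 1423 of 11853 were higher and 1457 lower at that cut, so the members stood near the share of all genes. XRCC3 gave -0.42 [-0.20, -0.64] (adjusted p = 0.0696) and RAD51AP1 0.52 [-0.07, 1.10] (adjusted p = 0.0864). For 18 of the 30 members the difference had opposite signs in the 2 replicate sets, as for CHEK1 [-0.27, 0.68], FANCB [-0.27, 0.74] and EXO1 [-0.15, 0.64]. DDIAS was called lower in the clones of replicate 1, at -0.78 (adjusted p = 0.0234), where 2.47% of all genes were, and gave 0.40 in replicate 2. XRCC3 was called lower in the clones of replicate 2, at -0.64 (adjusted p = 0.0354), where 6.38% of all genes were. In replicate 2 the XRCC3 DMSO signal lay between 172.6 and 254.2 in the control lines and between 102.7 and 165.7 in the clones, with no overlap. Without clone 1, 5 members were called, FANCL (0.41), RAD51AP1 (0.59), FANCB (0.29) and EXO1 (0.32) higher and XRCC3 (-0.39) lower, but calls rose over all genes too, to 8.88% higher and 9.06% lower.

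Outside the members, 52 other genes of homologous recombination, the Fanconi pathway and replication stress were measured. In the control lines 11 of the 52 were called lower and 0 higher, where 5.06% of all genes were called lower and 5.07% higher. Their median response there was -0.15. In the clones 0 were called by limma, where 0.464% of all genes were called lower. At an unadjusted p under 0.05, 14 of the 52 were lower in the clones, against 1052 of 11853 genes. CLSPN, the adaptor through which ATR activates CHEK1, had the largest fall, -0.94 [-1.17, -0.70] (adjusted p = 0.00107), and lay beyond the proliferation genes at -0.52 (adjusted p = 0.000873). By line its response was -1.29, -0.72 and -0.81 in control 1, 2 and 3 and between -0.40 (clone 15) and 0.35 (clone 24) in the clones, so the groups did not overlap. The difference of 0.76 [0.89, 0.63] was called (adjusted p = 0.0421), in 7 of 22 alternative settings. RAD18, a ubiquitin ligase of damage bypass, fell by 0.70 [-0.68, -0.73] (adjusted p = 0.0037) and lay beyond the proliferation genes at -0.28 (adjusted p = 0.0203). RPA2, a subunit of the single-strand binding protein, fell by 0.57 [-0.88, -0.26] (adjusted p = 0.00525), and H2AX, the histone phosphorylated at breaks, by 0.50 [-0.93, -0.06] (adjusted p = 0.0234). Of 9 measured genes of end joining, the repair route that needs no sister chromatid, 0 were called by limma in the control lines. Of all genes 5.06% were called lower and 5.07% higher there. Their median response was -0.070. At an unadjusted p under 0.05, 2 of the 9 were lower, against 1486 of 11853 genes.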

How the data were processed

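LNCaP control lines and MDV3100-resistant clones were measured on 40 arrays. The deposited values are signal intensity per probe set, which the authors made with MAS5 (version not given in the sources used here), per the submitters' processing notes. The mean signal after trimming 2% at each end was 150 on every array, so no further scaling was done. Probe sets whose mean log2(signal + 16) reached the median of all, 4.815, were kept. The annotation can be old. Differences of dim genes are understated by the pseudocount.

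Groups and columns came from the labels. Values were averaged over the 2 replicate numbers of a line, and 10 line responses, or 10 DMSO levels, were fitted with limma 3.58.1 in R 4.3.3, 3 control lines and 7 clones sharing 1 estimate of the spread, with Benjamini-Hochberg adjustment over 11853 genes. For the comparison beyond proliferation, the median response of 63 proliferation genes was subtracted in each line. This reads the same contrast on another scale and is no independent result. The fits were tested on simulated data. The number of lines and arrays limits precision. A p-value covers the spread among these lines within each group, or among the other units where they are named. Whether the replicates came from separate cultures is not labelled, so part of that spread could be technical.

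The members and gene lists were chosen with earlier results of these data known. Values per culture are given for up to 8 called members, by size of the control line response, and for BRCA1, CHEK1, ATM and ATR; of the other repair genes the 4 largest called ones are named. Genes named beyond these rules were chosen after their values were seen.

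Replicate numbers were taken to pair the 2 treatments of a line, since in all 20 pairs the arrays deviated together from their groups (r = 0.479 to 0.874 across genes). Alternatives covered the pseudocount, filter, quantile normalization, probe sets and intensity trend. They also covered cultures as units, single arrays with a line block, reference lists and left-out lines, sets and cultures. Promoter letters were searched with Python 3.11.15 and pandas 2.3.3.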

Additional observations from a re-analysis of the deposited data

Results flagged for a closer look

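Of 28 sets of 7 clone values checked, 3 held a clone apart from the other 6, where chance gives about 1 in 20. With the 2 replicates averaged, clone 15 was the 1 clone whose members' median lay below its proliferation median. It was at -0.058, with the others between 0.038 and 0.093. Neither replicate set alone set it apart. In replicate 1 it was at 0.0076, and clone 1 was lower, at -0.035. In replicate 2 it was at -0.018, and clone 9 was below its proliferation median too, at -0.0036. Clone 1 had a mean DMSO level of CHEK1 of 7.95 on the log2(signal + 16) scale, with the others between 8.41 and 8.69. Only replicate 2 set it apart, at a signal of 199.1, with the others between 357.1 and 753.8. That culture matched clone 19 best. In replicate 1 its signal was 269.2, with the others between 174.1 and 295.5. Clone 9 had a mean DMSO level of ATM of 7.87, with the others between 8.11 and 8.23. Only replicate 1 set clone 9 apart, at a signal of 235.9, with the others between 309.4 and 389.5. In replicate 2 it was 202.1, with the others between 201.6 and 220.6. The response of CLSPN differed between clones and control lines by 0.764 in the test of that difference.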

How the results depend on the processing

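Of 214 recomputed counts and medians, 177 kept their direction and stayed within 1.5 times or 1 SD of the reported value, 37 did not and 0 reversed. The cause of these moves was not tested. The reported counts were 14 members lower in the control lines, 0 in the clones, 0 differing in response, 0 differing in DMSO level, and 2 and 1 beyond proliferation genes in control lines and clones. With each line as a block on single arrays, 0 members were lower in the control lines and 1 and 0 lay beyond proliferation genes. Of all genes 0%, 0.0844% and 0.00844% did. With cultures as units, the 2 of a line counted as independent, 4 lay beyond proliferation genes in the control lines, where 0.751% of all genes did. The mean of all probe sets and the mitosis genes as reference gave 4 as well, where 0.591% and 0.911% of all genes passed. Cultures as units changed no other call count by over 1.5 times. Lower in the clones were 3 members with a pseudocount of 64, where 0.994% of all genes were. With all probe sets averaged or with an intensity trend 1 was, where 0.599% and 0.92% of all genes were. The intensity trend also gave 1 differing response, higher in the clones, where 0.65% of all genes were. A pseudocount of 1 left 0 beyond proliferation genes in the clones, where 0.33% of all genes were. Leaving out 1 line or 1 replicate set gave 0 to 15 members lower in the control lines, 0 to 5 in the clones, 0 to 1 differing in response, 0 to 5 in DMSO level, 0 to 4 beyond proliferation in the control lines and 0 to 2 in the clones, and a members' median beyond proliferation of 0.0397 to 0.153 in the control lines. Of all genes, these left-out settings called 0.0422% to 5.31% lower in the control lines and 0% to 1.05% in the clones. Beyond proliferation they called 0.0759% to 0.692% lower in the control lines and 0% to 0.354% in the clones. Differing responses reached 0.422% higher and 0.607% lower, and DMSO levels 8.88% and 9.06%. Without the 3 replicate 2 cultures of control 2, control 3 and clone 1, 3 responses differed, where 0.785% of all genes were called higher. Without control 2 of replicate 1, chosen after seeing the data, 6 members were lower in the control lines, 0 lay beyond proliferation in the clones and the median beyond proliferation was 0.0763. That median was 0.171 against replication genes and 0.077 against mitosis genes.

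Of 907 recomputed values of single genes, 773 kept their side of the threshold, 99 lost it, 24 gained it and 11 changed sign. The ATM response of the control lines was 0.0686 with all probe sets averaged, 0.0691 without replicate 1, 0.0845 without control 1 and 0.0298 without control 2 of replicate 1, and -0.0859 without replicate 2. That of ATR was 0.0187 without replicate 2 and -0.272 without replicate 1. EXO1 beyond proliferation in the control lines was 0.0175 without replicate 1 and -0.504 without replicate 2. In the clones it was 0.00405 without replicate 2 and between -0.0481 and 0.0061 without 1 line each, above 0 at 0.00152 without clone 14 and at 0.0061 without clone 19. DDIAS without replicate 1 was 0.101 beyond proliferation in the clones and 0.398 in DMSO level, and without replicate 2 it was -0.359 and -0.777. The number of arrays limits all of these, and 3 control lines are few.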
